A study of Mus musculus with 16 samples.

Results

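The enzymes, transporter and receptors that make, remove and sense extracellular adenosine were followed in mouse lung fibroblasts through 10 genes: Entpd1, Enpp1, Nt5e, Alpl, Ada, Adk, Slc29a1, Adora1, Adora2a and Adora2b. They were listed by function and selected on earlier results of these data, in which Nt5e was among the genes with the largest rises under TGF-β1 in wild type cells. Each was read from the array probes whose transcript is assigned to its symbol, and all 10 were among the 15394 genes that passed the filter on dim probes.

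RNA was measured on 1-colour Agilent arrays from primary lung fibroblasts that had been freed by enzymatic digestion from the lungs of female mice aged 8 weeks. The 4 groups were wild type C57BL/6J cells with vehicle, wild type C57BL/6J cells with TGF-β1, Meflin knockout cells with vehicle and Meflin knockout cells with TGF-β1, where TGF-β1 was the recombinant protein at 5 ng/ml and every culture was kept for 48 h. Each group had 4 arrays, stated to come from independent experiments, and the p-values reflect only how these few arrays spread, which limits the precision. The background strain of the knockout and the deleted part of the gene are not given in the sources used here. Meflin, encoded by Islr, is a membrane-anchored protein of fibroblasts, and TGF-β1 is a cytokine known for driving fibroblasts toward contractile myofibroblasts that lay down matrix. The design asks how the loss of Meflin alters the response of lung fibroblasts to this cytokine.

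Cells release ATP, which surface enzymes cut step by step to adenosine. CD39, encoded by Entpd1, takes ATP and ADP to AMP, ENPP1 takes ATP directly to AMP and pyrophosphate, and CD73, encoded by Nt5e, takes AMP to adenosine, a step that tissue-nonspecific alkaline phosphatase, encoded by Alpl, can also carry out. Adenosine is then removed by deamination to inosine or by phosphorylation to AMP inside the cell, which it enters through nucleoside transporters, and it is sensed by G protein-coupled receptors that lower (A1) or raise (A2a and A2b) cyclic AMP. In the lung this system is known for restraining inflammation after acute injury and for a part in chronic fibrosis.

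The region before the transcription start of Nt5e, the member whose signal rose most under TGF-β1 in both genotypes, and of Adora2b, whose response differed between the genotypes, is shown here so that their sequence stands beside their values. The 250 bases before each start are taken from RefSeq on GRCm38.p6, where 9 of the 10 members had a promoter entry. Each is printed 5′ to 3′ on the plus strand, at chr9:88327359-88327608 for Nt5e and chr11:62248734-62248983 for Adora2b, which is also the strand of both genes. Capitals mark matches on either strand to CAGACA, the SMAD-binding element, or to GGGCGG, the GC box.
Nt5e: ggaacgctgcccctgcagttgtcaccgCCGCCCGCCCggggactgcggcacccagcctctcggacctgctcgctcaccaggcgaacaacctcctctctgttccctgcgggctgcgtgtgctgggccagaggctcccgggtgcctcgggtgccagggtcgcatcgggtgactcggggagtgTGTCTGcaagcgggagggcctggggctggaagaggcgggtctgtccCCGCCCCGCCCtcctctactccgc
Adora2b: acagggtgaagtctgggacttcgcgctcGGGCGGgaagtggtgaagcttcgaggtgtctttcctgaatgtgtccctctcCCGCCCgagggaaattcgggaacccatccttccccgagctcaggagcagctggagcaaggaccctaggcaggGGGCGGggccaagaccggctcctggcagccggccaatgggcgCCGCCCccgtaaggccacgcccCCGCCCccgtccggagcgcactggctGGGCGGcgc
The Nt5e sequence held 1 match to CAGACA, whose first printed base lay at position -70, counted back from -1 just before the start. It held 4 matches to GGGCGG, at positions -223, -219, -24 and -19, in overlapping pairs. The Adora2b sequence held 6 matches to GGGCGG and no CAGACA. Among the other members with an entry, CAGACA was found only before 2 of the 8 listed starts of Slc29a1, at -173 and -54. Neither of the printed sequences held ACGTG, the core of the hypoxia response element, or TGACG, the half-site bound by CREB. Over all 32851 promoters of the same length, CAGACA was found in 17.1%, ACGTG in 16.6%, TGACG in 17.8% and GGGCGG in 32.7%. These matches describe the letters of the window and were not tested as binding sites.

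Before the members, the arrays and labels were checked. The 75th percentile of probe signal ran from 382 to 526 over the 16 arrays, 31308 to 35457 of 56605 probes lay well above background, and within a group no 2 arrays correlated below an r of 0.9959. Islr had a mean log2 signal in wild type cells of 10.82 ± 0.06 (SD, n = 4) with vehicle and 8.34 ± 0.08 with TGF-β1, and no knockout array showed it well above background. Its signal in the knockout was thus at least 138-fold lower with vehicle and, with TGF-β1, at least 19.7-fold lower. This rests on 1 probe, whose position relative to the deleted part is not known, so a transcript lacking only the probed part would be missed. Bounds of this kind set the bright group's mean against a floor in the dim group, which on each array is the faintest signal of any probe well above background, or the probe's own signal where that is higher.

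The fibroblast label was set against defining markers. All 8 fibroblast markers (Col1a1, Col1a2, Col3a1, Pdgfra, Pdgfrb, Thy1, Dcn and Lum) lay well above background on every array. All 10 macrophage and leukocyte markers, Ptprc and Adgre1 among them, did so too, and so did 4 mesothelial markers, with Msln and Wt1 among them. Of the 8 endothelial markers 7 lay well above background on every array. Other lists were mixed. Of the 6 pericyte and smooth muscle markers 4 lay well above background on every array. Of the 8 lymphocyte markers 2, Cd3e and Cd4, lay well above background on every array, Nkg7 did so on all 8 TGF-β1 arrays and no vehicle array, and 4 did so on no array, Cd79a, Cd8a and Ms4a1 among them. Of the 8 epithelial markers 4 (Krt8, Krt18, Cdh1 and Cldn18) did so on every array, and Nkx2-1, a regulator of lung epithelium, on none. Sftpc and Scgb1a1, products of alveolar and airway epithelium, were well above background on all 8 vehicle arrays, where Sftpc had means of 8.57 in wild type cells and 8.14 in the knockout, and on 1 and 0 of the 8 TGF-β1 arrays.

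Below, a level is the log2 of the probe's signal after the arrays were scaled to a common 75th percentile, and a difference is between group means on that log2 scale, with its standard error (SE). A gene rose or fell where limma's adjusted p was under 0.05 over all genes tested. Because the members were picked with results known, these p-values set a difference against the spread between arrays and are no independent evidence for the choice. The fits for TGF-β1 in each genotype and for genotype in each medium share groups, so their values are given side by side. Levels are not compared between genes, which have different probes.

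**Figure D1:**
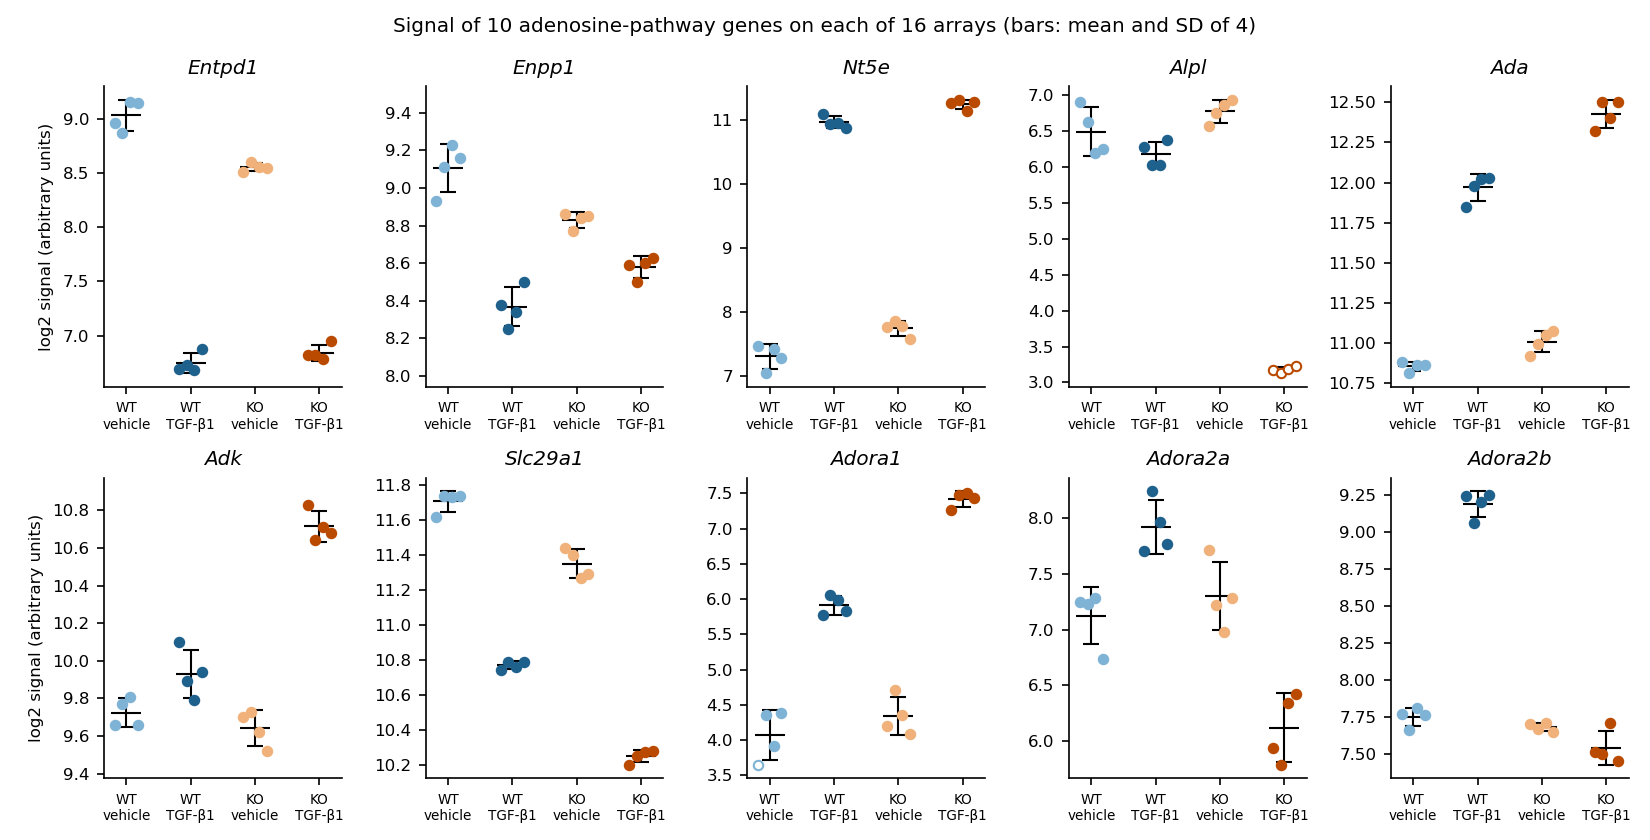
Log2 signal (vertical axis, arbitrary units, its own range in each panel) of the 10 members on each array; points are arrays in the order of replicates 1 to 4, bars the mean and SD of 4, and hollow points were not well above background. Nt5e sits between 7.04 and 7.86 on the 8 vehicle arrays and between 10.88 and 11.31 on the 8 TGF-β1 arrays, whereas Adora2b is high, at 9.06 to 9.25, only on the 4 arrays of wild type cells with TGF-β1.

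Among the enzymes that act on ATP, Entpd1 was lower with TGF-β1 in both genotypes. Its log2 signal was 8.96, 8.87, 9.16 and 9.15 on the wild type vehicle arrays and 6.69, 6.73, 6.68 and 6.88 on the wild type TGF-β1 arrays. In the knockout it was 8.51, 8.6, 8.56 and 8.55 with vehicle and 6.82, 6.82, 6.78 and 6.95 with TGF-β1. The vehicle arrays of the genotypes did not overlap, and the TGF-β1 arrays of the genotypes did. TGF-β1 lowered Entpd1 4.89-fold in wild type cells (difference -2.29 ± 0.07 SE, adjusted p = 3.67e-13). In the knockout the fall was 3.28-fold (-1.71 ± 0.07, adjusted p = 2.24e-12), smaller than in wild type cells by the interaction of 0.58 ± 0.09 (adjusted p = 9.33e-05). With vehicle the knockout stood lower by 0.48 ± 0.07 on the log2 scale (difference -0.48, adjusted p = 2.39e-04), a call lost on slide 1 alone (-0.36, adjusted p = 0.0616). With TGF-β1 the genotypes differed by 0.10 ± 0.07 (adjusted p = 0.203), with a 95% interval of -0.04 to 0.24. That last difference passed with quantile normalization (0.17, adjusted p = 0.032) and in the authors' value table (0.18, adjusted p = 0.0264), and was -0.02 when both kept probes of the gene were averaged (adjusted p = 0.734). On the second probe of Entpd1 alone the responses were -2.13 and -1.70.

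Entpd1 is also a surface protein of macrophages and endothelium, so those markers were read beside it. The summed linear signal of the 10 macrophage and leukocyte markers was 132000 to 153000 on wild type vehicle arrays and 73000 to 77600 with TGF-β1. In the knockout it was 111000 to 116000 and 52500 to 57200. Of these 10 markers 9 fell and 1 did not pass in wild type cells, and 9 fell and 1 rose in the knockout. The summed signal of the 8 endothelial markers went from 4790 to 5100 down to 2160 to 2300 in wild type cells and from 4280 to 4470 down to 1400 to 1500 in the knockout, and all 8 fell in both. Their part in the fall of Entpd1 was not tested. In RNA from whole cultures, fewer cells of a type and less RNA per cell cannot be told apart. The 8 fibroblast markers did not move as 1 group. In wild type cells 5 rose and 3 fell and in the knockout 4 rose and 4 fell, among them the growth factor receptor Pdgfra (from 13.86 to 11.65 in the knockout) and the matrix proteoglycans Lum (11.82 to 9.73) and Dcn (16.52 to 15).

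**Figure D2:**
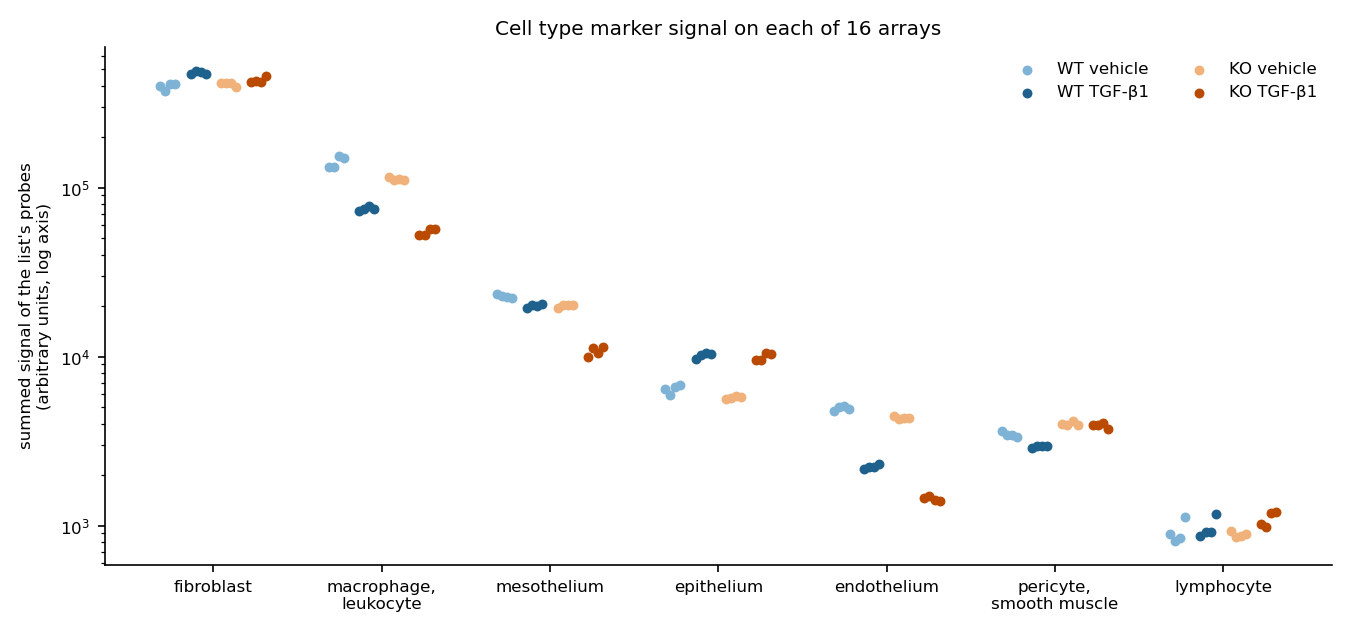
Summed linear signal of each cell type marker list (vertical log axis, arbitrary units) on each of the 16 arrays, coloured by group. Macrophage and leukocyte signal drops from 111000 or more on the vehicle arrays to 77600 or less on the TGF-β1 arrays, endothelial signal from 4280 or more to 2300 or less, and fibroblast signal lies at 373000 to 409000 and 470000 to 492000 in wild type cells and at 393000 to 418000 and 421000 to 454000 in the knockout. Mesothelial signal is lowest, at 9920 to 11400, on the knockout TGF-β1 arrays.

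Enpp1, the enzyme that releases pyrophosphate while making AMP, also fell with TGF-β1. It stood at 8.93, 9.11, 9.23 and 9.16 in wild type vehicle cells and 8.38, 8.25, 8.34 and 8.5 with TGF-β1. Knockout levels were 8.86, 8.77, 8.84 and 8.85 with vehicle and 8.59, 8.5, 8.6 and 8.63 with TGF-β1. The knockout lay below wild type with vehicle and above it with TGF-β1, where the highest wild type and the lowest knockout array met at 8.5. The fall was 1.67-fold in wild type cells (-0.74 ± 0.06, adjusted p = 6.38e-08) and 1.19-fold in the knockout (-0.25 ± 0.06, adjusted p = 0.00178), and the responses differed by 0.49 ± 0.09 (adjusted p = 2.33e-04). Between the genotypes the difference was -0.27 ± 0.06 with vehicle (adjusted p = 0.00929) and 0.22 ± 0.06 with TGF-β1 (adjusted p = 0.00606). Both genotype differences missed the threshold on the arrays of slide 1 alone (-0.20, adjusted p = 0.292, and 0.24, adjusted p = 0.0597) and passed on slide 2 (-0.35 and 0.20).

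Nt5e, the enzyme of the last step to adenosine, had the largest rise of the members. Its log2 signal was 7.47, 7.04, 7.42 and 7.28 on wild type vehicle arrays and 11.1, 10.94, 10.96 and 10.88 on wild type TGF-β1 arrays. In the knockout it was 7.76, 7.86, 7.77 and 7.57 with vehicle and 11.26, 11.31, 11.15 and 11.28 with TGF-β1. Every TGF-β1 array stood above every vehicle array, and within each medium every knockout array stood above every wild type array. As a description of the values that entered the choice of genes, the rise was 12.7-fold in wild type cells (3.67 ± 0.09) and 11.4-fold in the knockout (3.51 ± 0.09), ranks 9 and 65 from the top among 15394 genes. The size of the rise did not pass as different between the genotypes (interaction -0.15 ± 0.12, adjusted p = 0.291, 95% interval -0.41 to 0.10). Knockout cells were higher by 0.44 ± 0.09 with vehicle (adjusted p = 0.00355) and by 0.28 ± 0.09 with TGF-β1 (adjusted p = 0.00843). The interaction contains the wild type rise that entered the choice, and both genotype differences use the same wild type arrays. Their p-values are likewise a description and no independent test. The vehicle difference was 0.55 on slide 1 and 0.32 on slide 2, neither of which passed with 2 arrays a group (adjusted p = 0.13 and 0.0964). With TGF-β1 it missed the threshold on slide 1 (0.27, adjusted p = 0.148), in the authors' value table (0.17, adjusted p = 0.115) and with quantile normalization (0.17, adjusted p = 0.117).

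The 5 genes whose signal followed that of Nt5e most closely over the 16 arrays, by Pearson's r as a description, were Lbh (0.996), a transcriptional cofactor, Elfn1 (0.9948), Carmn (0.9943), a long noncoding RNA of smooth muscle, Arg1 (0.9941), the arginine-degrading enzyme arginase, and Armcx3 (0.9935). The arrays fall into a vehicle cluster and a TGF-β1 cluster, so these r values mostly carry that split. Mean log2 signal of Lbh was 12.48 and 14.26 in wild type cells without and with TGF-β1 and 12.6 and 14.48 in the knockout. For Arg1 the means were 5.22, 10.8, 6.32 and 11.02 in the same order, for Carmn 10.01, 11.49, 10.2 and 11.62, for Elfn1 6.89, 8.04, 7.04 and 8.11, and for Armcx3 11, 11.7, 11.1 and 11.74. Like Nt5e, each of the 5 had its means in the order wild type vehicle, knockout vehicle, wild type TGF-β1, knockout TGF-β1. Having been picked by r with Nt5e, they were likely to share this order.

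Alpl, the alkaline phosphatase that also breaks down pyrophosphate, lost its signal in 1 group. It stood at 6.9, 6.62, 6.19 and 6.24 in wild type vehicle cells, 6.27, 6.02, 6.02 and 6.37 with TGF-β1, and 6.56, 6.74, 6.85 and 6.93 in knockout vehicle cells. On the knockout TGF-β1 arrays it read 3.17, 3.13, 3.19 and 3.23 and was not well above background on any. The other 3 groups overlapped with their neighbours in level. Alpl was therefore at least 6.65-fold lower with TGF-β1 than with vehicle in the knockout (adjusted p = 1.86e-12), and at least 4.39-fold lower in knockout than in wild type TGF-β1 cells (adjusted p = 5.14e-11). In wild type cells the difference with TGF-β1 was -0.32 ± 0.14 (adjusted p = 0.0519). The fitted interaction, which takes the dim arrays at their own signal, was -3.27 ± 0.19 (adjusted p = 2.41e-09), rank 56 from the bottom of 15394. With normexp background correction, which adds an offset of 50 to every signal, these differences were smaller and passed: -1.10 with TGF-β1 in the knockout (2.14-fold), -0.76 between the genotypes with TGF-β1 (1.69-fold) and -0.96 for the interaction. Markers of several cell types were low in the same group. The summed signal of 4 mesothelial markers was 22100 to 23300 and 19400 to 20400 in wild type cells without and with TGF-β1, and 19400 to 20300 and 9920 to 11400 in the knockout. All 4 fell in the knockout, while 2 rose and 2 fell in wild type cells. In the knockout Upk3b went from 11.48 to 8.13 and Lrrn4 from 11.22 to 9.41. Msln (13.27 to 12.69) and Wt1 (12.25 to 11.61) fell less. The macrophage and leukocyte sum (52500 to 57200) and the endothelial sum (1400 to 1500) were also lowest on the knockout TGF-β1 arrays. Against wild type TGF-β1 cells, 7 of the 10 macrophage and leukocyte markers were lower, 1 was higher and 2 did not pass. Of the 8 endothelial markers 6 were lower and 2 did not pass. Of the 8 fibroblast markers 4 were lower, 1 was higher and 3 did not pass. The part of any of these cell types in the values of Alpl was not tested. The wild type difference of Alpl was -0.61 on slide 1 (adjusted p = 0.00668) and -0.02 on slide 2 (adjusted p = 0.903). It passed without replicate 3 (-0.42, adjusted p = 0.0141) or 4 (-0.40, adjusted p = 0.0225) of wild type vehicle, without replicate 4 of wild type TGF-β1 (-0.38, adjusted p = 0.0319) and, through the shared spread, without replicate 1 of knockout vehicle (-0.32, adjusted p = 0.0487). Between the genotypes with vehicle the difference was 0.28 ± 0.14 (adjusted p = 0.195). It was -0.11 on slide 1 (adjusted p = 0.692) and passed on slide 2 (0.67, adjusted p = 0.025) and without replicate 1 of wild type vehicle (0.42, adjusted p = 0.0317).

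Of the genes that remove adenosine, Ada, the deaminase that turns it into inosine, rose in both genotypes. Its log2 signal was 10.88, 10.81, 10.86 and 10.86 in wild type vehicle cells and 11.85, 11.98, 12.02 and 12.03 with TGF-β1. Knockout levels were 10.92, 10.99, 11.05 and 11.07 with vehicle and 12.32, 12.5, 12.4 and 12.5 with TGF-β1. The 4 groups did not overlap and had the same order as for Nt5e. The rise was 2.17-fold in wild type cells (1.12 ± 0.05, adjusted p = 6.87e-11) and 2.68-fold in the knockout (1.42 ± 0.05, adjusted p = 1.06e-12), and a second probe gave 1.14 and 1.44. With TGF-β1 the knockout was higher by 0.46 ± 0.05 (adjusted p = 1.32e-06). The responses differed by 0.30 ± 0.07 (adjusted p = 0.00228), a call lost with quantile normalization (0.13, adjusted p = 0.0838) and in the authors' value table (0.13, adjusted p = 0.0857). With vehicle the genotypes differed by 0.15 ± 0.05 (adjusted p = 0.0644). That difference passed with the slide as a block (adjusted p = 0.0347), with quantile normalization (0.14, adjusted p = 0.0469) and in the authors' value table (0.14, adjusted p = 0.05), and also without replicate 1 of wild type TGF-β1 (0.15, adjusted p = 0.0431), of knockout vehicle (0.18, adjusted p = 0.0373) or of knockout TGF-β1 (0.15, adjusted p = 0.0469).

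Adk, the kinase that returns adenosine to AMP inside the cell, rose mainly in the knockout. It stood at 9.66, 9.77, 9.81 and 9.66 in wild type vehicle cells and 10.1, 9.89, 9.79 and 9.94 with TGF-β1. In the knockout it stood at 9.7, 9.73, 9.62 and 9.52 with vehicle and 10.83, 10.64, 10.71 and 10.68 with TGF-β1. The knockout TGF-β1 arrays lay above all others, and the other 3 groups overlapped with their neighbours. The rise in the knockout was 2.10-fold (1.07 ± 0.07, adjusted p = 7.14e-10) against 1.15-fold in wild type cells (0.20 ± 0.07, adjusted p = 0.0142), an interaction of 0.87 ± 0.09 (adjusted p = 1.92e-06). Knockout cells were higher with TGF-β1 by 0.79 ± 0.07 (adjusted p = 6.38e-08), and the difference with vehicle was -0.08 ± 0.07 (adjusted p = 0.465). The small wild type rise was lost with quantile normalization (0.16, adjusted p = 0.0528), in the authors' value table (0.16, adjusted p = 0.0514), on slide 2 alone (0.13, adjusted p = 0.195) and without replicate 1 of wild type TGF-β1 (0.15, adjusted p = 0.0526).

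Slc29a1 encodes ENT1, the equilibrative transporter through which adenosine crosses the membrane, and its signal fell with TGF-β1 in both genotypes. It was 11.62, 11.74, 11.73 and 11.74 on wild type vehicle arrays and 10.74, 10.79, 10.76 and 10.79 on wild type TGF-β1 arrays. Knockout arrays read 11.44, 11.4, 11.27 and 11.29 with vehicle and 10.2, 10.25, 10.27 and 10.28 with TGF-β1. No groups overlapped, and the knockout was lower in each medium. The fall was 1.92-fold in wild type cells (-0.94 ± 0.04, adjusted p = 7.08e-11) and 2.14-fold in the knockout (-1.10 ± 0.04, adjusted p = 2.98e-12). Genotype differences were -0.36 ± 0.04 with vehicle (adjusted p = 7.25e-05) and -0.52 ± 0.04 with TGF-β1 (adjusted p = 5.33e-08). On slide 1 alone the vehicle difference was -0.26 and missed the threshold (adjusted p = 0.13), against -0.46 on slide 2 (adjusted p = 0.00362). The interaction of -0.16 ± 0.06 passed narrowly (adjusted p = 0.0398). It was -0.28 on slide 1 (adjusted p = 0.054) and -0.03 on slide 2 (adjusted p = 0.641). It was lost with normexp background correction (-0.16, adjusted p = 0.0595) and with no filter on dim probes (-0.16, adjusted p = 0.0674). It was also lost without any 1 of 9 arrays, which were replicate 1 of wild type vehicle (-0.13, adjusted p = 0.0834), replicates 2, 3 and 4 of wild type TGF-β1 (-0.15, -0.16 and -0.15), replicates 1 and 2 of knockout vehicle (-0.13 and -0.14) and replicates 1, 2 and 3 of knockout TGF-β1 (-0.14, -0.16 and -0.16).

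The receptors moved in different directions. Adora1, the A1 receptor that lowers cyclic AMP, was dim with vehicle and rose with TGF-β1 in both genotypes. It read 3.65, 4.36, 3.91 and 4.38 in wild type vehicle cells, where 3 of 4 arrays were well above background, and 5.77, 6.06, 5.99 and 5.83 with TGF-β1. In the knockout it read 4.2, 4.71, 4.35 and 4.09 with vehicle and 7.26, 7.47, 7.51 and 7.44 with TGF-β1. The vehicle groups overlapped, and the knockout TGF-β1 arrays lay above all wild type TGF-β1 arrays. The rise was 3.58-fold in wild type cells (1.84 ± 0.16, adjusted p = 7.55e-08) and 8.48-fold in the knockout (3.08 ± 0.16, adjusted p = 6.21e-11). The responses differed by 1.25 ± 0.22 (adjusted p = 2.20e-04), with 1.00 on slide 1, where the call was lost (adjusted p = 0.0808), and 1.49 on slide 2. With TGF-β1 the knockout was 2.84-fold higher (1.50 ± 0.16, adjusted p = 6.08e-07), and with vehicle the difference was 0.26 ± 0.16 (adjusted p = 0.311). With normexp background correction the rises were 1.71-fold in wild type cells (0.77) and 3.03-fold in the knockout (1.60), and the knockout was higher with TGF-β1 by 0.98, all of which passed. The other 2 probes of the gene were well above background on 3 and 0 of the 16 arrays and were not used.

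Adora2a, the A2a receptor that raises cyclic AMP, rose with TGF-β1 in wild type cells and fell in the knockout. Wild type arrays read 7.25, 7.23, 7.28 and 6.74 with vehicle and 7.7, 8.24, 7.96 and 7.77 with TGF-β1. Knockout arrays read 7.71, 7.22, 6.98 and 7.28 with vehicle and 5.94, 5.79, 6.34 and 6.42 with TGF-β1. The vehicle groups overlapped, the knockout TGF-β1 arrays lay below every other array, and the highest knockout vehicle array lay within the range of the wild type TGF-β1 arrays. The rise was 1.73-fold in wild type cells (0.79 ± 0.18, adjusted p = 0.00127) and the fall 2.26-fold in the knockout (-1.17 ± 0.18, adjusted p = 2.37e-05). The opposite responses gave an interaction of -1.97 ± 0.26 (adjusted p = 1.17e-05). With TGF-β1 the knockout was 3.47-fold lower (-1.79 ± 0.18, adjusted p = 4.25e-07), and with vehicle the difference was 0.17 ± 0.18 (adjusted p = 0.593). With normexp background correction the difference with TGF-β1 was -1.13 (2.19-fold) and the interaction -1.30, and both passed. The fall in the knockout was -1.60 on slide 1 and -0.75 on slide 2 (adjusted p = 0.000507 and 0.0119).

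Adora2b, the A2b receptor, also coupled to a rise in cyclic AMP, rose with TGF-β1 in wild type cells. Its signal was 7.77, 7.66, 7.81 and 7.76 on wild type vehicle arrays and 9.24, 9.06, 9.2 and 9.25 on wild type TGF-β1 arrays. Knockout arrays read 7.7, 7.67, 7.71 and 7.65 with vehicle and 7.51, 7.5, 7.71 and 7.45 with TGF-β1. Wild type TGF-β1 arrays stood apart, and the other 3 groups overlapped with their neighbours. The rise in wild type cells was 2.71-fold (1.44 ± 0.06, adjusted p = 1.10e-11), at 1.44 on each slide. In the knockout the difference was -0.14 ± 0.06 (adjusted p = 0.0323), and the responses differed by -1.58 ± 0.08 (adjusted p = 4.32e-10), rank 442 from the bottom of 15394. Knockout TGF-β1 cells were 3.13-fold lower than wild type TGF-β1 cells (-1.64 ± 0.06, adjusted p = 1.96e-12), and with vehicle the difference was -0.07 ± 0.06 (adjusted p = 0.479). The small knockout fall was lost on slide 1 (-0.18, adjusted p = 0.0734) and slide 2 (-0.10, adjusted p = 0.333) alone, with quantile normalization (-0.04, adjusted p = 0.516), with normexp background correction (-0.01, adjusted p = 0.872) and in the authors' value table (-0.04, adjusted p = 0.564). It was lost as well without replicate 1 (-0.13), 2 (-0.14) or 3 (-0.13) of knockout vehicle, or without replicate 1 (-0.13), 2 (-0.13) or 4 (-0.11) of knockout TGF-β1.

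**Figure D3:**
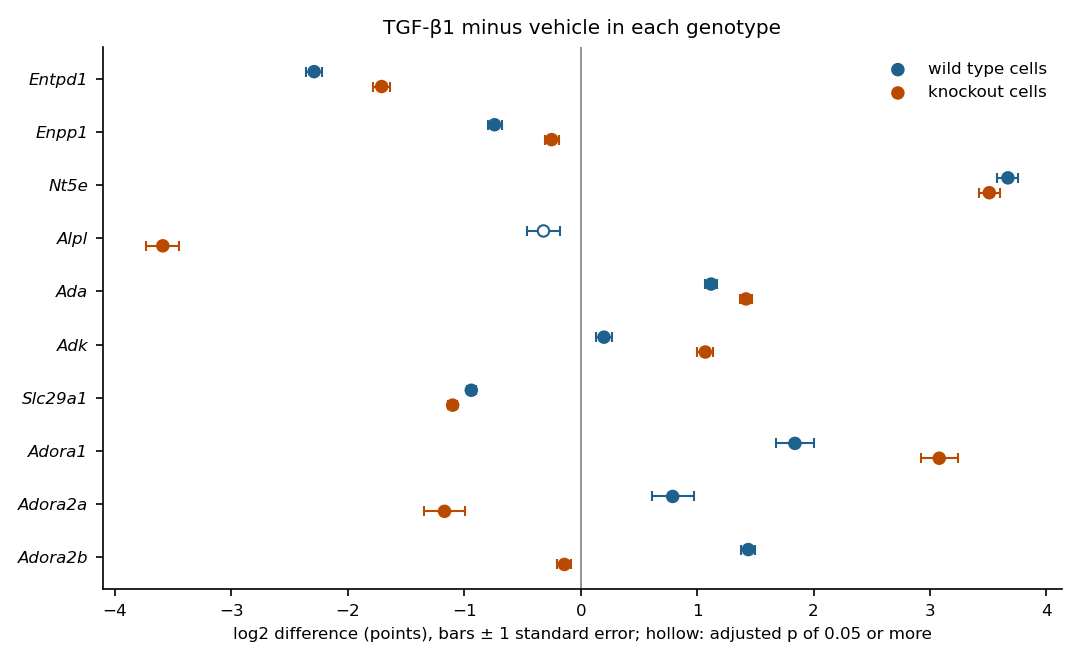
Log2 difference between TGF-β1 and vehicle (horizontal axis, bars ± 1 SE) of each member in wild type and knockout cells, with hollow points where the adjusted p was 0.05 or more. Nt5e lies at 3.67 and 3.51, while Adora2a (0.79 and -1.17), Adora2b (1.44 and -0.14) and Alpl (-0.32 and -3.59, its knockout TGF-β1 arrays not well above background) lie apart between the genotypes.

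Over the 10 members, TGF-β1 raised 6 (Nt5e, Ada, Adk, Adora1, Adora2a and Adora2b) and lowered 3 (Entpd1, Enpp1 and Slc29a1) in wild type cells. Among all genes tested 68.6% passed in that comparison, 41.3% upward and 27.3% downward. In the knockout 4 rose (Nt5e, Ada, Adk and Adora1) and 6 fell, of which Adora2b narrowly, against 82.6% of all genes, 46.6% upward and 35.9% downward. The median difference of the members was 0.50 in wild type cells and -0.19 in the knockout, beside 0.08 and 0.10 over all genes. Their median absolute difference was 1.03 and 1.30, beside 0.28 and 0.50. With 10 genes picked on these results, the shares are set side by side and nothing further is read from them. Vehicle and TGF-β1 arrays did not overlap for 8 members in wild type cells and for 9 in the knockout, where 63.0% and 77.2% of all genes did not overlap. Rises made up 60.2% of all called genes in wild type cells, a share that was 46.1% in the authors' value table and 52% after quantile normalization. In the knockout the share was 56.5%, and 46.9% and 48.6% under those settings. The authors' value table covers fewer genes (5257 tested), so its shares are not over the same set. The pattern of Adora2a and Adora2b, called upward in wild type cells and downward in the knockout, was found in 2.49% of all genes, and the reverse pattern, which no member had, in 1.47%, with the knockout call of Adora2b lost under the settings named with its values.

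Between the genotypes with vehicle, 1 member was higher in the knockout (Nt5e) and 3 were lower (Entpd1, Enpp1 and Slc29a1), where 13.2% of all genes passed, 7.06% upward and 6.16% downward. On slide 1 alone, with 2 arrays a group, 0 of the 10 passed limma's threshold and 3 had an unadjusted p under 0.05, and on slide 2 the counts were 4 and 6. The 4 on slide 2 were Entpd1, Enpp1, Slc29a1 and Alpl (0.67, adjusted p = 0.025), so they are not the same 4. Nt5e passed on neither slide. With TGF-β1, 5 were higher in the knockout (Enpp1, Nt5e, Ada, Adk and Adora1) and 4 lower (Alpl, Slc29a1, Adora2a and Adora2b), beside 70.2% of all genes, 39.7% upward and 30.5% downward. Arrays of the genotypes did not overlap for 5 members with vehicle and 9 with TGF-β1, as for 18.8% and 64.7% of all genes. The median absolute genotype difference was 0.27 with vehicle and 0.65 with TGF-β1, beside 0.08 and 0.29 over all genes. The response to TGF-β1 differed between the genotypes for all members but Nt5e, 5 with a positive and 4 with a negative interaction, and the call of Slc29a1 was a narrow one. Over all genes 58.3% had such a difference, 31.9% positive and 26.5% negative. Positive calls made up 54.6% of all interaction calls, against 43.6% with quantile normalization. Knockout-high calls made up 53.4% of the vehicle calls, and also 53.4% with quantile normalization. That share was 29.9% on slide 1 and 36.2% on slide 2. It was 38.9% in the authors' value table, which covers fewer genes (5257 tested).

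**Figure D4:**
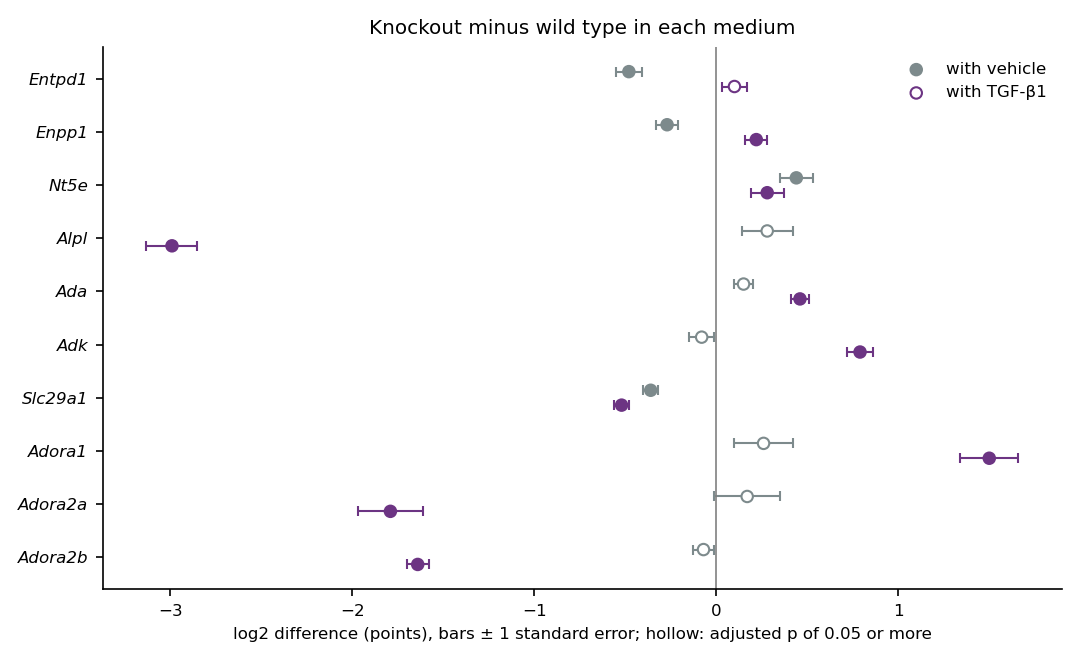
Log2 difference between knockout and wild type (horizontal axis, bars ± 1 SE) of each member with vehicle and with TGF-β1, with hollow points where the adjusted p was 0.05 or more. With vehicle the differences lie between -0.48 and 0.44; with TGF-β1 they run from -2.99 (Alpl, a fitted value, its knockout arrays not well above background) and -1.79 (Adora2a) to 1.50 (Adora1).

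Further genes of the pathway were described by function-based lists, also drawn up with earlier results known. Their counts stand beside shares of all genes tested of 41.3% upward and 27.3% downward in wild type cells and 46.6% and 35.9% in the knockout, and their medians beside 0.08 and 0.10. Among 12 other ectonucleotidases 7 could be tested. In wild type cells 3 rose, 2 fell and 2 did not pass, and in the knockout 2 rose and 5 fell, with medians of 0.06 and -0.32. With TGF-β1, 6 of the 7 were lower in the knockout and 1 was higher (5 and 1 with normexp background correction), where 30.5% of all genes were lower and 39.7% higher. Entpd2, a surface ATPase, changed by -1.41 ± 0.07 in wild type cells (adjusted p = 8.55e-11) and -3.45 ± 0.07 in the knockout (adjusted p = 7.98e-16; -2.71 with normexp). Cd38, which consumes NAD at the cell surface, rose by 0.85 ± 0.07 in wild type cells (adjusted p = 8.18e-08) and changed by -0.52 ± 0.07 in the knockout (adjusted p = 8.33e-06). Enpp3, a relative of Enpp1, rose by 1.06 ± 0.09 and 0.28 ± 0.09 (adjusted p = 4.39e-08 and 0.00708), and Entpd6, an intracellular and secreted relative of CD39, by 0.51 ± 0.09 and 1.29 ± 0.09.

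Of 20 intracellular purine enzymes 17 were tested. In wild type cells 9 rose and 3 fell, and in the knockout 11 rose and 5 fell (7 and 5, and 9 and 7, with quantile normalization). Xdh, the enzyme that makes uric acid, changed by -0.14 ± 0.06 in wild type cells (adjusted p = 0.0555) and by -2.71 ± 0.06 in the knockout (adjusted p = 6.30e-15), and the wild type difference passed with quantile normalization (-0.25) and normexp (-0.17). Ampd3, an AMP deaminase, changed by 0.06 ± 0.05 (adjusted p = 0.29) and -1.04 ± 0.05 (adjusted p = 3.28e-11). The adenylate kinase Ak1 rose by 0.51 ± 0.06 in wild type cells and 1.16 ± 0.06 in the knockout. Of 13 genes of nucleoside transport and ATP release 10 were tested. In wild type cells 2 rose and 4 fell, and in the knockout 3 rose and 5 fell. Slc29a2, the second equilibrative transporter, rose by 0.53 ± 0.09 in wild type cells and 0.82 ± 0.09 in the knockout (adjusted p = 1.09e-04 and 6.60e-07), opposite in direction to Slc29a1. Slc17a9, which loads ATP into vesicles, changed by -0.09 ± 0.07 (adjusted p = 0.266) and 0.64 ± 0.07 (adjusted p = 5.76e-07).

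The other purinergic receptors numbered 15, of which 13 were tested. In wild type cells 4 rose and 6 fell, and in the knockout 4 rose and 7 fell, with medians of -0.06 and -0.18. Adora3, the remaining adenosine receptor, rose by 0.43 ± 0.09 in both genotypes (adjusted p = 3.82e-04 and 2.80e-04). P2ry1, an ADP receptor, fell by 0.87 ± 0.06 on the log2 scale in wild type cells and by 2.35 ± 0.06 in the knockout, where the difference was -1.52 with normexp. P2ry14, a receptor for UDP-sugars, fell by 0.75 ± 0.07 and 1.54 ± 0.07. P2rx2, an ATP-gated channel, rose by 0.46 ± 0.10 in wild type cells and changed by -0.60 ± 0.10 in the knockout (adjusted p = 7.29e-04 and 4.53e-05).

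Downstream of the receptors, 34 of 36 genes of cyclic AMP signalling were tested. Wild type cells had 10 rises and 13 falls (7 and 17 with quantile normalization), and the knockout 14 and 13 (9 and 15). Adcy5, an adenylate cyclase, rose by 1.01 ± 0.11 and 2.27 ± 0.11 (the latter 1.32 with normexp), and Prkar2a, a regulatory subunit of protein kinase A, by 0.23 ± 0.05 and 0.95 ± 0.05. Rapgef3, the cyclic AMP sensor EPAC1, fell by 0.85 ± 0.07 and 2.10 ± 0.07. Of 6 genes of pyrophosphate and mineral handling, beside Enpp1 and Alpl, 5 were tested. In each genotype 2 rose and 2 fell (2 and 3 with quantile normalization). Ank, which exports pyrophosphate, fell by 1.19 ± 0.06 in wild type cells and 0.36 ± 0.06 in the knockout. Mgp, an inhibitor of calcification, changed by 0.07 ± 0.05 in wild type cells (adjusted p = 0.223) and by -1.27 ± 0.05 in the knockout (adjusted p = 2.70e-12).

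**Figure D5:**
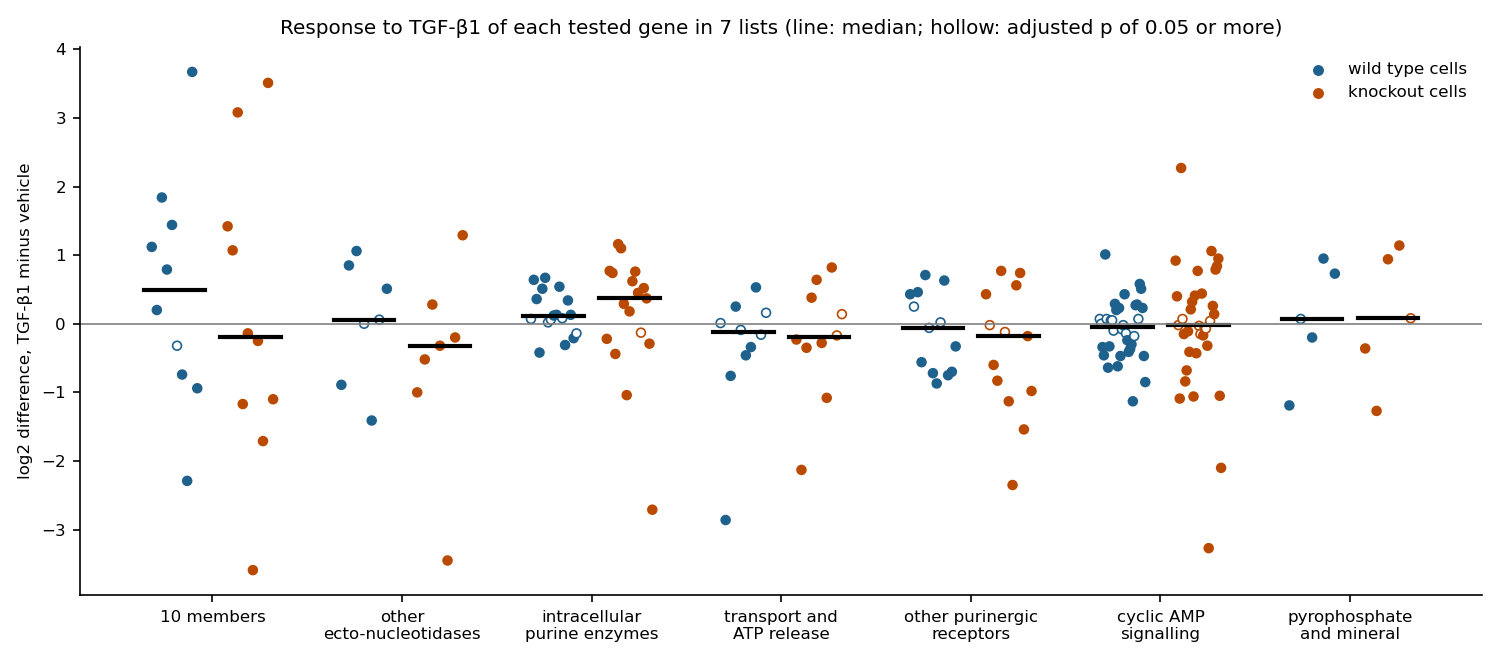
Log2 difference between TGF-β1 and vehicle (vertical axis) of each tested gene of the 10 members and 6 further lists, in wild type (left of each pair) and knockout cells (right), with the median as a line and hollow points where the adjusted p was 0.05 or more. Medians lie between -0.32 and 0.50, and each list holds both rises and falls; values of genes at background in 1 group are fitted values, not bounds.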

How the data were processed

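The authors deposited, per the file headers, the intensity of each spot on a linear scale from Agilent Feature Extraction 11.0.1.1, which is also the version in the submitters' processing notes, with background subtraction done in that program. A second deposited file is a value table, in log2 units, of 9933 probes and 9 of the 10 members (not Enpp1). The table correlated with the log2 intensity at r of at least 0.999, so that a higher value is a brighter probe. How it was normalized and how its probes were picked is not given in the sources used here. Differences of the named list genes from it lay close to those with quantile normalization. With TGF-β1 in the knockout, Entpd2 was -3.38 and -3.39 and Xdh -2.78 and -2.78. The authors' value table and quantile normalization are therefore not independent alternatives. Its columns had medians of 6.595, 6.598, 6.615 and 6.609 (wild type, vehicle), 6.473, 6.466, 6.493 and 6.469 (wild type, TGF-β1), 6.586, 6.593, 6.567 and 6.58 (knockout, vehicle) and 6.391, 6.38, 6.388 and 6.381 (knockout, TGF-β1).

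Each array had 59305 spots for 56605 probes, and 0 were saturated. Intensities were log2 transformed, spots averaged by probe and the arrays' 75th percentile matched. Dropping 27 probes with outlier marks, those well above background on every array of 1 or more groups were kept (33888 probes). Probes were named by transcript accession through RefSeq on GRCm38.p6 (32994 of 56605), and a gene was represented by its brightest kept probe. The members had 14 probes, of which 12 were kept. Probe coordinates are not given, because the arrays were designed on mm9.

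Differences were fitted with limma 3.58.1 (R 4.3.3; data.table, version 1.17.8, for reading), 1 coefficient per group over all 16 arrays, 2-sided, with Benjamini-Hochberg adjustment over 15394 genes in each of 5 comparisons. The fitting step was tested on simulated gene values in which few genes changed. That test did not cover the scaling, the background handling or the choice of probes. The arrays lie on 2 slides, each with 2 arrays of every group. Alternatives were quantile normalization, normexp (offset 50, on median spot signals, as means are not in these files), the authors' value table, other filters and probe rules, slide or replicate blocks, single slides, only the groups compared, and each array left out.

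The members, the other lists and the named genes were chosen with earlier results of these data known. Named were all members, up to 4 genes of each list with the smallest adjusted p in a comparison and any list member as a value, the 5 genes most correlated with Nt5e, and Islr.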

Additional observations from a re-analysis of the deposited data

Results flagged for a closer look

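In 3 of 68 groups of 4 arrays, 1 array stood apart, with a gap to its nearest neighbour, as a share of the group's range, above Dixon's critical value. Chance marks about 1 group in 20. Replicate 1 of wild type vehicle was low for Slc29a1 (log2 signal 11.62, gap 0.919 of the range). Replicate 4 of wild type vehicle was low for Adora2a (log2 signal 6.74, gap 0.907). Replicate 4 of knockout vehicle was low for the summed fibroblast markers (393000, gap 0.864).

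The response to TGF-β1 differed between the genotypes, by limma's test of the difference, for 9 members. Of these, Ada, Slc29a1 and Adora1 lost the call under alternatives given with their values. The log2 difference of responses, knockout minus wild type, was 0.58 for Entpd1, 0.49 for Enpp1, -3.27 for Alpl (a fitted value, with 1 group not well above background), 0.30 for Ada, 0.87 for Adk, -0.16 for Slc29a1, 1.25 for Adora1, -1.97 for Adora2a and -1.58 for Adora2b. Of the 18 other pathway genes named, most were picked for small adjusted p-values, so that how many passed is no result; those that passed are given as values. For ectonucleotidases it was -2.04 for Entpd2, -1.37 for Cd38, -0.77 for Enpp3 and 0.77 for Entpd6. Purine enzymes and the ATP transporter gave -2.57 for Xdh, -1.10 for Ampd3, 0.65 for Ak1 and 0.73 for Slc17a9. The receptors gave -1.48 for P2ry1, -0.79 for P2ry14 and -1.05 for P2rx2. In cyclic AMP signalling and mineral handling the values were 1.26 for Adcy5, -1.25 for Rapgef3, 0.71 for Prkar2a, 0.83 for Ank and -1.34 for Mgp. Over all genes 58.3% passed the same test.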

How the results depend on the processing

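For the 50 differences of members, 1325 values came from alternatives. Of these 1266 kept direction and side of the threshold, 41 lost and 16 gained a call, and 2 turned sign: Entpd1 between the genotypes with TGF-β1 with its probes averaged (-0.02) and Alpl between the genotypes with vehicle on slide 1 (-0.11). Neither had passed before. Of the 50 differences, 35 kept direction and side under every alternative run. Many alternatives could not change the direction. Leaving out an array of a group not compared, adding a slide or replicate block, or fitting only the groups compared leaves the difference itself as it was. The counts of values kept are therefore not counts of independent checks.

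The authors' value table holds fewer genes (5257 tested), of which 4376, 4841, 1160, 4213 and 3825 changed for TGF-β1 in wild type cells, TGF-β1 in the knockout, genotype with vehicle, genotype with TGF-β1 and the interaction. With fewer arrays, limma on slide 1 gave 0 members (3 at an unadjusted p under 0.05) and 197 genes for genotype with vehicle and 5620 genes for the interaction, and slide 2 gave 1048 genes for genotype with vehicle. Leaving out 1 array gave 8 to 10, 9 to 10, 4 to 5, 9 and 8 to 9 members in the 5 comparisons, and 10116 to 10684, 12406 to 12781, 1486 to 2078, 10367 to 10909 and 8625 to 9062 of all genes. Quantile normalization moved the median of all genes for TGF-β1 in the knockout from 0.10 to -0.01 and the knockout difference of Adora2b from -0.14 to -0.04, where its call was lost; the cause was not tested. Normexp, whose offset of 50 shrinks differences of dim probes, moved 7 differences of members by over 1.5 times, for Alpl, Adora1 and Adora2a, and all 7 kept their call.

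Same-numbered arrays of different groups deviated together at r of -0.034 to 0.218, over 0.1 for 8 of 24 pairs. Of the 16 arrays 13 correlated best with their own number, a hint from the data of shared deviation. Between wild type TGF-β1 and knockout vehicle, which were not compared here, every pair passed 0.1 (r of 0.218, 0.114, 0.175 and 0.133). In none of the comparisons of 2 groups that were made did every pair do so, and the numbers were not taken as a pairing. With the replicate number as a block the members changed numbered 9, 10, 5, 9 and 8, and of all genes 10788, 12847, 2292, 11065 and 9312 changed. The vehicle difference of Ada then passed (adjusted p = 0.0304) and the interaction of Slc29a1 did not (-0.16, adjusted p = 0.0505).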
